A study of Drosophila melanogaster with 15 samples.

Results

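Gene expression in untreated fruit flies that carry Dsup was compared with that in untreated control flies, in whole bodies of adult Drosophila melanogaster males on Affymetrix 3' expression arrays. The 8 untreated arrays were taken out of the 15 of the series by their labels. They were 1 array each of the transgenic lines Dsup-1, Dsup-2, Dsup-3 and Dsup-4, called Dsup lines 1 to 4 here, and 4 arrays of control flies labelled as biological replicates 1 to 4. Each array held RNA of a pool of 25 males 3 days old, raised at 25 °C on a cornmeal and molasses medium with antibiotic, which both groups received. The other 7 arrays, 4 of the same Dsup lines and 3 of control flies after 1000 Gy, enter only where they are named. The labels used here give neither the promoter that drives Dsup nor its insertion sites nor the stock of the control flies. The transgene, its insertion sites and any difference in genetic background between the lines and the control stock therefore cannot be told apart. Each line was measured on a single array per treatment, so the spread among the Dsup arrays holds differences between lines as well as between pools. Of 18952 probe sets, the 18769 that are not Affymetrix controls were tested, and 13647 of them with exactly 1 gene symbol stood for 11982 genes.

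Dsup, the damage suppressor of tardigrades, is a basic nuclear protein that binds nucleosomes and shields DNA from hydroxyl radicals. No probe set in the annotation used here is named for Dsup, so the transgene itself was not measured. Because Dsup coats chromatin, untreated flies are the setting in which an effect of its presence on transcription, apart from any damage, could be seen. Whole male flies mix fat body, gut, muscle, head, testis and accessory gland, and fewer cells of a type cannot be told apart from less RNA per cell in such samples.

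All levels below are log2 values after quantile normalization, and every change is Dsup lines minus control on that scale. A probe set was called where limma's moderated test on the 8 untreated arrays, adjusted by Benjamini-Hochberg over all 18769 probe sets, gave an adjusted p below 0.05. As deposited, the array means were 4.05 to 4.06 in Dsup lines and 4.64 to 4.65 in control, and the median probe set was 0.61 lower in Dsup lines (log2 change -0.61). After quantile normalization the median change was -0.01, and all changes are relative to that shift. Each group may have been normalized by itself, and an offset so given to all arrays of a group in 1 probe set cannot be told apart from a difference between the groups. Hybridisation controls, which are added to each sample before it goes onto the array, split the arrays into Dsup line 1, control 1 and control 2 (mean log2 level 6.82 to 6.98) and the other 5 arrays (7.89 to 8.44). Control 4 stood apart in the 3' probe sets of 18S ribosomal RNA, at 7.48 against 11.3 to 12.3 on the other untreated arrays, and 139 of its genes lay at least 2-fold from the mean of the other controls, against 29 to 71 for controls 1 to 3. Actin and Gapdh 3' minus 5' levels, a measure of RNA integrity, averaged 1.12 in Dsup lines and 1.02 in control (exact permutation test, two-sided, p = 0.343; the smallest p this design allows is 0.0286). The labelled sex was checked with Yp1, a yolk protein gene of females, which was at 2.16, 1.55, 1.70 and 1.20 in Dsup lines 1 to 4 and at 1.73, 1.70, 1.59 and 1.59 in controls 1 to 4, in the 14th percentile of all levels. Of 17 yolk, eggshell and other female genes, 3 were not under the 40th percentile. They were Yp3, at 4.18 to 5.17 on the untreated arrays, and Cp15 and Cp18, with mean levels of 4.42 and 3.84.

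The called changes between Dsup lines and control were modest, and most of them were in weakly expressed genes. In Dsup lines 289 probe sets were higher and 211 lower, together 500 of 18769 or 2.66%, and only 24 of the higher and 2 of the lower changed at least 2-fold. The balance depended on the scaling: centring the arrays on their medians gave 1251 higher and 144 lower, and centring on cytosolic ribosomal protein genes 822 higher and 168 lower. With the 3' minus 5' difference as a covariate 111 were called. Among genes, 143 were called higher (1.19%) and 96 lower (0.801%). The median size of a called change was 0.56 on the log2 scale, against 0.14 over all probe sets. The groups did not overlap in any called probe set, and across the array they did not overlap in 2544 probe sets, or 13.6%. Of the 500 calls, 204 fell on probe sets with no gene symbol.

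Calls were most frequent among weakly expressed probe sets. The median level was 2.42 for called probe sets and 4.38 for all, and 384 of the 500 calls lay under the 40th percentile of level, at 3.36. Large changes were not so placed. Whatever the p, 78 probe sets changed at least 2-fold, and 60 of these were not under that percentile, 15 of them called. With the probe sets split by level into 10 bins, 139 of 1877 were called in bin 3 (7.41%) and 5 of 1877 in bin 10, the highest (0.266%). When probe sets under the 40th percentile were left out before the adjustment, none of the rest was called, with 1528 at an unadjusted p below 0.05 and a smallest adjusted p of 0.0667. The calls below thus rest on the whole array being tested together. Leaving out 1 array gave 74 calls (without control 3) to 315 (without Dsup line 1).

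**Figure D1:**
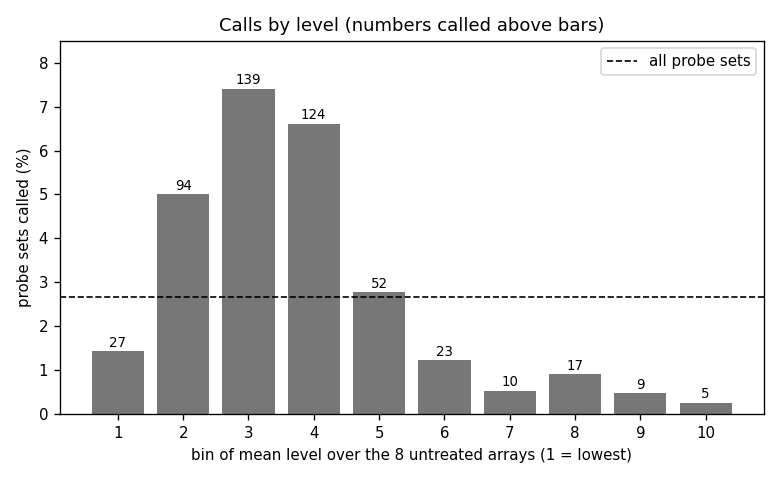
Share of probe sets called (%, vertical axis) in 10 bins of mean log2 level over the 8 untreated arrays (horizontal axis, lowest first), with the number called above each bar and the share over all probe sets as a dashed line. Calls peak at 7.41% in bin 3 and end at 0.266% in bin 10.

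GstD5, mthl2 and Ugt37A2 had the largest called rises. GstD5, a glutathione S-transferase of the delta class that conjugates glutathione to electrophiles, was at 7.26, 6.11, 9.10 and 6.87 in Dsup lines 1 to 4 and at 5.17, 4.46, 5.29 and 5.10 in controls 1 to 4. All Dsup lines stood above all controls, with line 3 the highest by far. The change was 2.33 ± 0.52 (log2, SE; 5.02-fold; limma adjusted p = 0.0477). Without Dsup line 3 the change was 1.74, and the call was lost in 6 of the 8 fits that left out 1 array, with an adjusted p of up to 0.122. Among the arrays with low and with high hybridisation controls the change was 2.44 and 2.16. Ugt37A2, a UDP-glycosyltransferase, an enzyme family that adds sugars to small lipophilic molecules, was at 4.99, 4.79, 5.82 and 5.61 in the lines and at 4.10, 3.43, 3.84 and 3.24 in control. It rose by 1.65 ± 0.25 (3.14-fold; adjusted p = 0.0158), and the groups lay 0.69 apart at their nearest arrays. Without control 3 its adjusted p was 0.0501.

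mthl2, a receptor of the Methuselah family, had the smallest adjusted p of the 15 largest rises. It was at 4.41, 3.36, 4.84 and 3.89 in Dsup lines 1 to 4 and at 1.92, 2.18, 2.02 and 1.75 in controls 1 to 4. The controls were near the low end of the array and close together, and every line was above them. The change was 2.16 ± 0.27 (4.47-fold; adjusted p = 0.0094), and it stayed between 1.92 and 2.42, and called, whichever array was left out. CG18563 rose by 1.41 ± 0.20 (adjusted p = 0.0111), CG31664 by 1.19 ± 0.17 (adjusted p = 0.0126) and CG17404 by 1.12 ± 0.15 (adjusted p = 0.0107), and these 3 were also called in every fit without 1 array. CG31664 was at 4.35, 4.62, 5.08 and 4.26 in the lines and at 3.47, 3.17, 3.45 and 3.46 in control, and of these 4 genes it alone lies above the 40th percentile of level.

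Among other rises, Jhe, which encodes the esterase that breaks down juvenile hormone, was at 4.72, 4.44, 5.33 and 4.58 in Dsup lines and at 3.71, 3.62, 3.37 and 3.96 in control (change 1.10 ± 0.19, adjusted p = 0.0224). Alp2, an alkaline phosphatase, was at 6.53, 6.33, 7.40 and 6.29 in Dsup lines and at 4.82, 5.69, 5.53 and 5.60 in control (change 1.23 ± 0.26, adjusted p = 0.0439). Both were highest in line 3, and Alp2 lost its call in each of the 8 fits without 1 array. Nepl19 and Nepl20, neprilysin-like metallopeptidase genes that are neighbours on the chromosome, rose by 1.18 ± 0.23 and 0.87 ± 0.14 (adjusted p = 0.0291 and 0.0198). Of the 15 largest rises, the rest were CG4650, CG15155, CG4835, Elal, CG4408 and CG30098, with changes of 1.54, 1.27, 1.20, 1.14, 1.14 and 1.12.

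**Figure D2:**
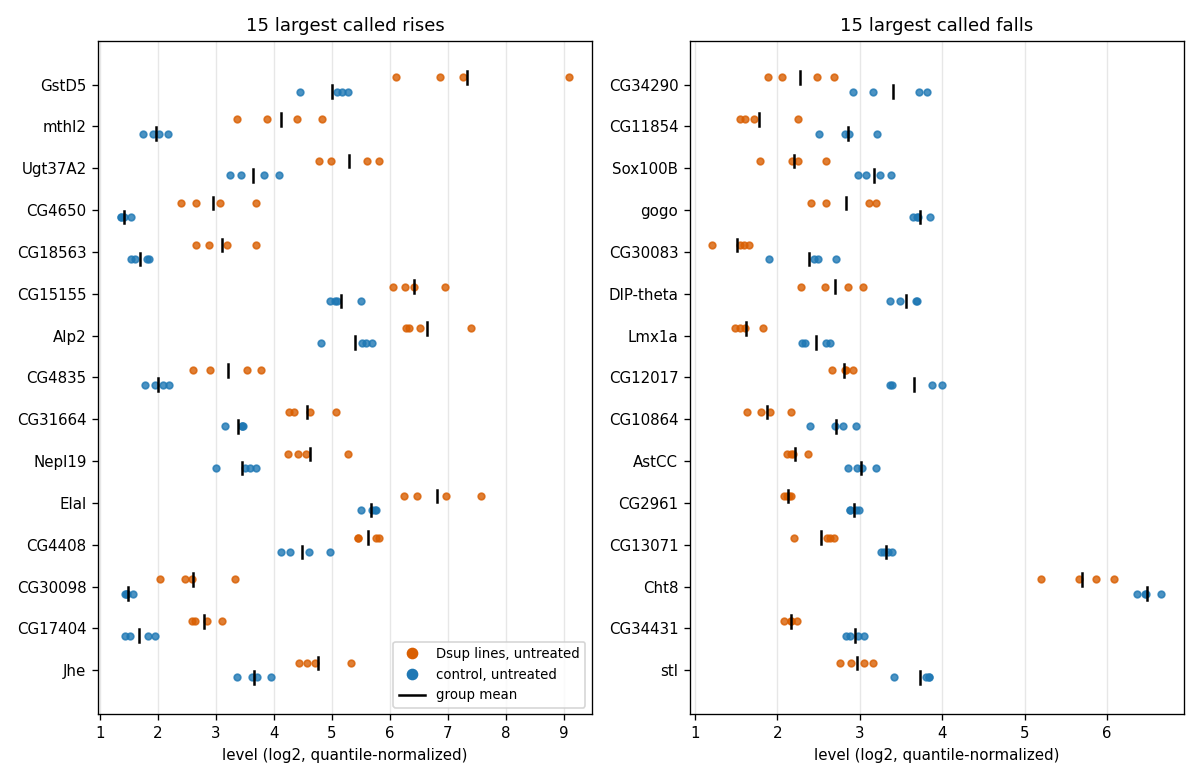
Log2 level (horizontal axes) on each untreated array for the 15 genes with the largest called rise and the 15 with the largest called fall, with Dsup lines in orange above control in blue and the group mean as a black bar. Only genes whose groups stand apart were chosen for display. GstD5 reaches 9.10 in Dsup line 3, and nearly all falls lie at levels under 4.

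The largest called falls were smaller than the called rises, and nearly all came from genes near the low end of the array. CG34290 and CG11854 fell by 1.13 and 1.08 on the log2 scale (adjusted p = 0.0375 and 0.0213). Sox100B, an HMG-box transcription factor of the gonad, was at 2.18, 2.59, 1.79 and 2.25 in Dsup lines and at 2.98, 3.08, 3.25 and 3.38 in control (change -0.97 ± 0.16, adjusted p = 0.0198). gogo, a receptor that guides photoreceptor axons, was at 3.20, 3.11, 2.41 and 2.59 in Dsup lines and at 3.85, 3.69, 3.65 and 3.71 in control (change -0.90 ± 0.17, adjusted p = 0.0283). Its other probe set changed by -0.23. DIP-theta, a cell surface protein of synaptic recognition, changed by -0.86 ± 0.16 (adjusted p = 0.0266).

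Lmx1a, a LIM homeodomain transcription factor, and AstCC, a neuropeptide of the allatostatin C type, fell by 0.85 and 0.80 on the log2 scale (adjusted p = 0.0101 and 0.0094). AstCC was at 2.37, 2.17, 2.12 and 2.19 in Dsup lines and at 2.96, 2.86, 3.03 and 3.20 in control. Arrays within each group lay close together. The smallest spread was that of CG2961, at 2.14, 2.11, 2.08 and 2.17 in Dsup lines and at 2.99, 2.88, 2.88 and 2.95 in control (change -0.80 ± 0.08, adjusted p = 0.00746). CG34431 was alike, with a change of -0.77 ± 0.09 (adjusted p = 0.00812). Lmx1a, AstCC, CG2961 and CG34431 kept their calls in every fit without 1 array. Cht8, a chitinase, was the only one of the 15 falls at a higher level, at 5.87, 5.20, 6.08 and 5.66 in Dsup lines and at 6.47, 6.46, 6.37 and 6.66 in control (change -0.78 ± 0.17, adjusted p = 0.0457, and up to 0.105 without 1 array).

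Of the 500 calls, 116 were not under the 40th percentile of level. A fit of the untreated arrays together with the irradiated Dsup lines, chosen after seeing the data, left out probe sets under the 40th percentile. It called 21 probe sets, all of them also among the 500. Its changes come from the same 8 untreated arrays, so the overlap is no separate evidence. With the same filter, the fit of the 8 untreated arrays alone called none. The genes among the 21 were named after their values were seen. Hmx, a homeobox transcription factor of the nervous system, was at 4.33, 4.08, 4.42 and 4.17 in Dsup lines and at 3.36, 3.43, 3.50 and 3.34 in control (change 0.84 ± 0.10, adjusted p = 0.00829 in the fit of 8 arrays). engrailed (en), the segment polarity homeobox gene, was at 3.99, 3.82, 3.77 and 3.61 in Dsup lines and at 3.15, 3.11, 2.94 and 3.14 in control (change 0.71 ± 0.10, adjusted p = 0.0126). jub, an Ajuba LIM protein of the Hippo pathway, changed by 0.64 ± 0.11 (adjusted p = 0.0205). In the other direction l(2)dtl, the substrate receptor of a ubiquitin ligase that acts in S phase, was at 3.05, 3.09, 3.19 and 3.23 in Dsup lines and at 4.07, 3.73, 3.72 and 3.87 in control (change -0.71 ± 0.10, adjusted p = 0.0126). In each of these the groups stood apart, although even they are weakly expressed on the scale of the array.

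Genes that act on chromatin, DNA damage and transcription were called about as rarely as other genes, of which 1.19% were called higher and 0.801% lower. Of 58 nucleosome proteins and chromatin regulators measured, none was called and the median change was -0.03, against -0.02 over all genes. Their changes ran from -0.45 for Hmr, a heterochromatin protein (adjusted p = 0.0623), to 0.38 for asf1, a histone chaperone (adjusted p = 0.0685). Hmr was at 3.77, 3.82, 3.80 and 4.13 in Dsup lines and at 4.25, 4.27, 4.28 and 4.51 in control, so the groups stood apart by 0.12 without a call. Of 67 genes of general transcription factors, RNA polymerase II and Mediator, MED16, a Mediator subunit, was called, with a change of 0.38 ± 0.09 (adjusted p = 0.0488), and the median change was -0.02. As deposited, MED16 had a change of -0.20.

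Of 43 DNA repair and checkpoint genes, mus101, the fly homologue of the checkpoint adaptor TopBP1, was called. It was at 2.76, 2.60, 2.70 and 3.08 in Dsup lines and at 1.86, 2.36, 2.06 and 2.04 in control, and rose by 0.71 ± 0.14 (adjusted p = 0.0291). The median of the repair genes was 0.04. None of 18 genes of p53, its radiation targets and cell death was called, and their median was -0.10. p53 itself was at 5.19, 5.30, 5.70 and 5.59 in Dsup lines and at 5.44, 5.47, 5.41 and 5.62 in control (change -0.04 ± 0.12, adjusted p = 0.888). The groups overlapped. None of 31 replication and cell cycle genes and none of 18 heat shock and chaperone genes was called, with medians of 0.11 and -0.06.

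Among 86 cytochrome P450 enzymes, which oxidise hormones, fatty acids and toxins, 5 were called higher and none lower, against 1.19% and 0.801% of all genes, and 60 changes were above 0 with a median of 0.13, against 5608 of 11982 genes above 0. The median over the list, set against the control mean gene by gene, was 0.00, 0.04, 0.21 and 0.18 in Dsup lines and 0.08, -0.08, -0.02 and -0.01 in control, so the groups overlapped. Cyp6t1 was at 5.44, 5.44, 5.51 and 5.08 in Dsup lines and at 4.97, 4.25, 4.47 and 4.23 in control (change 0.89 ± 0.17, adjusted p = 0.0291). Cyp4ac1 and Cyp4ac2, which lie beside each other, rose by 0.60 ± 0.11 and 0.57 ± 0.13 (adjusted p = 0.0225 and 0.0488), while as deposited their changes were -0.08 and -0.07. Cyp4ac3, of the same subfamily, had a change of -1.06 (adjusted p = 0.258). Among the 3 arrays with low hybridisation controls the P450 median was -0.02, and among the 5 with high ones 0.19.

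Of 35 UDP-glycosyltransferases, Ugt37A2 and Ugt36F1 were called higher and none lower, against 1.19% and 0.801% of all genes. Of these 35, 25 changes were above 0, against 5608 of 11982 genes, and the median was 0.25. By array the list's median was 0.12, 0.22, 0.32 and 0.11 in Dsup lines and 0.17, 0.00, -0.01 and -0.09 in control, so control 1 lay above lines 1 and 4. Ugt37A3, the paralogue of Ugt37A2, was at 6.75, 6.07, 8.32 and 8.07 in Dsup lines and at 5.74, 3.32, 5.82 and 3.44 in control. The groups stood apart, by 0.25, but the control values split into a higher and a lower pair (change 2.72 ± 0.68, adjusted p = 0.0665). The UGT median was 0.04 among the arrays with low hybridisation controls and 0.27 among those with high ones. Of 51 glutathione transferases and antioxidant enzymes, GstD5 alone was called, and 39 changes were above 0 with a median of 0.10. By array its median in control 1 (0.13) lay above those of lines 2 and 4 (0.07 and 0.04).

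Genes of the fat body, the fly's store and liver-like organ, gave some of the largest differences on the array without a call. The list holds secreted and storage proteins and also enzymes such as Lpin, bmm and Pepck1. Of 18 such genes none was called, 12 changes were above 0 and 6 below, 5 were at least 2-fold higher in Dsup lines, and the median was 0.23. By array the list's median in control 1 (0.25) lay above those of lines 1 and 4 (0.17 and 0.20). The lowest changes were those of Lpin, bmm and Pepck1, which act in fat storage, fat breakdown and glucose synthesis, at -0.81, -0.55 and -0.38 (adjusted p = 0.301, 0.304 and 0.435). Over all genes 43 (0.359%) were at least 2-fold higher whatever the p and 21 (0.175%) at least 2-fold lower. fit, a satiety peptide of the fat body, was at 4.03, 3.08, 6.52 and 3.26 in Dsup lines and at 1.93, 1.77, 1.87 and 1.95 in control (change 2.35 ± 0.62, adjusted p = 0.0751). Every line was above every control, and line 3 was higher than the rest by more than 2 log2 units. Lsp2, a larval storage protein that adult fat body also makes, was at 8.72, 9.29, 9.65 and 9.34 in Dsup lines and at 9.05, 5.37, 7.25 and 7.92 in control (change 1.85 ± 0.62, adjusted p = 0.132). Here the Dsup lines were alike and the controls ranged widely.

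Some genes of this kind outside the naming rule are given because of their values. TotC, a secreted stress peptide of the Turandot family, was at 6.44, 4.36, 9.52 and 4.78 in Dsup lines and at 2.48, 4.39, 4.97 and 1.64 in control, with the largest change of any gene, 2.91 ± 1.09 (adjusted p = 0.174), and overlapping groups. The only called Turandot gene of 5 was TotF, a weakly expressed one that fell by 0.54 (adjusted p = 0.025), against 0.801% of all genes called lower. Cyp4d21 and sxe2, both known as fat body or head genes under the sex determination pathway, were higher in all Dsup lines. Cyp4d21 was at 5.34, 4.34, 6.88 and 5.30 in Dsup lines and at 3.3, 3.46, 3.56 and 4.08 in control (change 1.87 ± 0.43, adjusted p = 0.0523). sxe2 was at 6.87, 6.70, 7.20 and 6.93 in Dsup lines and at 6.19, 6.12, 5.99 and 6.04 in control, and rose by 0.84 ± 0.11 (adjusted p = 0.0107). CG14499 and CG14500 had changes of 2.46 and 1.65 (adjusted p = 0.0546 and 0.055), with groups that stood apart in both.

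The array of Dsup line 3 weighed on these large differences. Of the 43 genes at least 2-fold higher in Dsup lines, line 3 was the highest of the lines in 30, line 1 in 8, line 2 in 4 and line 4 in 1. Of the 21 genes at least 2-fold lower, line 1 was the lowest in 14. Among the 289 probe sets called higher, line 3 was the highest in 114, and the other lines in 50 to 65. These are counts over genes that share arrays.

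Calls among male reproductive genes are read against 1.19% of all genes called higher and 0.801% lower, shares at which lists of this size would hold few. Over all genes 5608 of 11982 changes were above 0 and 6374 below. Of 35 accessory gland and seminal fluid genes, which males pass to females at mating, none was called, 31 changes were above 0 and the median was 0.32. By array the list's median was 0.59, 0.23, 0.38 and 0.04 in Dsup lines and 0.19, 0.17, 0.11 and -0.42 in control. Line 4 thus lay below controls 1 to 3. Spn77Bc, a serpin of that list, was at 11.87, 11.11, 11.64 and 10.78 in Dsup lines and at 10.85, 10.81, 10.69 and 9.98 in control (change 0.77 ± 0.26, adjusted p = 0.136). Acp76A, another seminal serpin, was at 10.06, 9.19, 9.14 and 8.48 in Dsup lines and at 9.0, 8.76, 8.72 and 7.40 in control (change 0.75 ± 0.38, adjusted p = 0.306). Line 1 was the highest and control 4 the lowest in both. Without control 4 the median of the list was 0.16, with 31 of 35 above 0. None of 60 testis genes was called, 47 changes were below 0, and the median was -0.11. Without control 4, 40 were below 0 and the median was -0.08, and by array the groups overlapped. can, a testis-specific TAF that meiotic transcription needs, was nearest to a call (change -0.47 ± 0.11, adjusted p = 0.0523).

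Genes of the eye and nervous system held no calls, against 1.19% of all genes called higher and 0.801% lower. Of 25 phototransduction genes 21 had changes below 0, with a median of -0.17, and of 35 neuronal channel and synaptic genes 27 did, with a median of -0.15. Over all genes 6374 of 11982 changes were below 0, with a median of -0.02. gl (glass), the zinc finger protein that specifies photoreceptors, was at 3.31, 3.65, 3.16 and 2.97 in Dsup lines and at 3.52, 3.93, 4.11 and 4.26 in control (change -0.68 ± 0.18, adjusted p = 0.0773). nAChRalpha7, a subunit of the acetylcholine receptor, was at 4.20, 4.79, 4.61 and 4.58 in Dsup lines and at 5.08, 5.25, 5.13 and 4.70 in control (change -0.49 ± 0.15, adjusted p = 0.104). In both genes the groups overlapped. Over the fits without 1 array the photoreceptor median stayed between -0.20 and -0.11 and the neuronal median between -0.19 and -0.09. By array the groups overlapped in both lists: the neuronal median of control 4 was -0.23, below lines 1, 2 and 4 (-0.03, -0.08 and -0.15), and the photoreceptor median was -0.07 in line 2 and -0.08 in control 1. Of 26 pigment genes none was called. y (yellow), a body colour gene often used as a marker in stocks, was at 4.37, 3.58, 3.18 and 3.21 in Dsup lines and at 4.24, 4.02, 4.15 and 4.01 in control (change -0.52 ± 0.23, adjusted p = 0.241), with line 1 above the controls and the other lines below them.

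**Figure D3:**
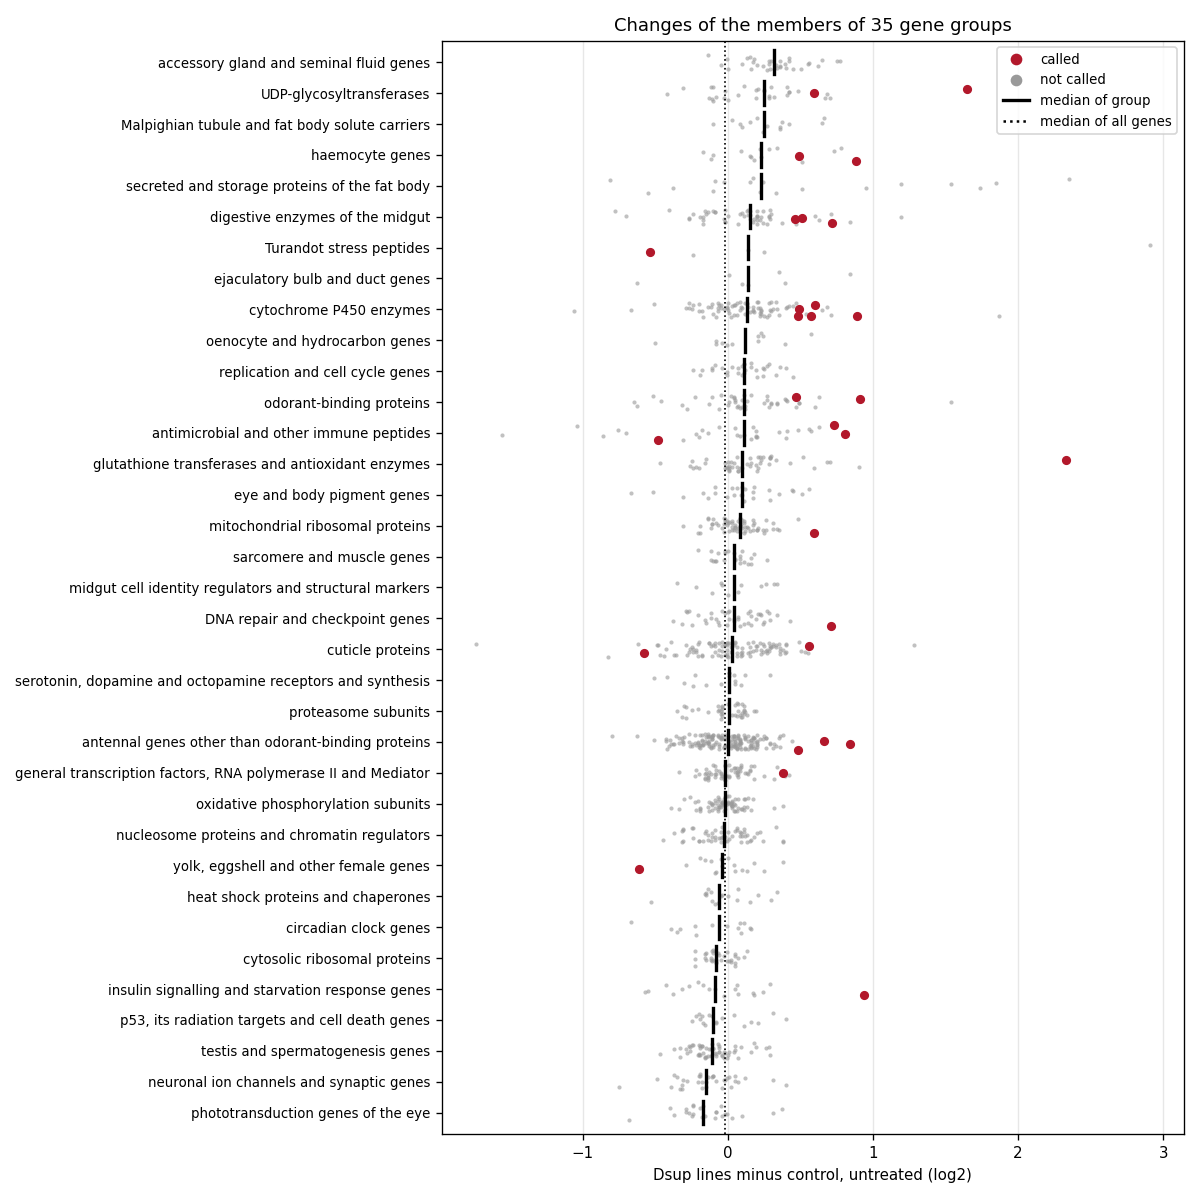
Change of each member (horizontal axis, log2, Dsup lines minus control, untreated) of 35 gene lists, 1 row per list, with called members in red, the list's median as a black bar and the median of all genes as a dotted line. Medians run from 0.32 for accessory gland genes (0.16 without control 4) to -0.17 for phototransduction genes, and few members of any list are called.

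Haemocyte genes, of the blood cells of the fly, lay above control in 13 of 16, with a median of 0.23, against 5608 of 11982 genes. By array the haemocyte median in line 3 (0.05) lay below those of controls 1 and 4 (0.06 and 0.08). Calls among haemocyte and immune peptide genes are read against 1.19% of all genes called higher and 0.801% lower. Sr-CI, a scavenger receptor that binds bacteria, was at 5.10, 5.25, 4.55 and 5.35 in Dsup lines and at 4.30, 4.03, 4.12 and 4.28 in control, and rose by 0.88 ± 0.16 (adjusted p = 0.0274). PPO3, the prophenoloxidase of lamellocytes, rose by 0.49 ± 0.10 (adjusted p = 0.034), with means of 2.15 in Dsup lines and 1.66 in control. Their part in the whole-body differences was not tested. Of 31 immune peptide genes, AttD, an attacin, and Drsl2, a drosomycin-like peptide, were called higher and Drsl6 lower, with changes of 0.81, 0.73 and -0.48 (adjusted p = 0.0224, 0.0145 and 0.0364), all near the low end of the array. Drsl4, of the same drosomycin-like family, was at 7.28, 5.31, 7.74 and 5.49 in Dsup lines and at 8.86, 8.54, 7.73 and 6.93 in control (change -1.56 ± 0.59, adjusted p = 0.176). AttD and its neighbour CG14325 rose together.

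In the gut, 3 of 59 digestive enzyme genes were called higher and none lower, against 1.19% and 0.801% of all genes, with a median of 0.15. They were Npc2c, of a family of sterol-binding proteins, and the serine proteases Ser6 and etaTry, with changes of 0.72, 0.51 and 0.46 (adjusted p = 0.0477, 0.0472 and 0.0439). As deposited, Ser6 and etaTry had changes of -0.18 and -0.22. By array the digestive list's median was 0.07 to 0.21 in Dsup lines and -0.04 to 0.06 in control. Of 14 tubule and fat body solute carriers none was called, 13 changes were above 0 and the median was 0.25. By array that median was 0.11 to 0.40 in Dsup lines and -0.09 to 0.09 in control. Of all the gene lists, only the digestive, solute carrier and odorant-binding lists had array medians that did not overlap between the groups. The nearest digestive medians were 0.07 in a Dsup line and 0.06 in a control. Across the array the groups did not overlap in 13.6% of probe sets. How many lists would stand apart by chance was not tested. Ilp5, an insulin-like peptide of the brain's insulin-producing cells, was the only called gene of 19 in insulin signalling and starvation. It was at 3.60, 2.95, 3.85 and 3.09 in Dsup lines and at 2.80, 2.15, 2.38 and 2.42 in control (change 0.94 ± 0.21, adjusted p = 0.0477, and up to 0.124 without 1 array).

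Chemosensory genes were called at shares to be read against 1.19% of all genes called higher. Of 48 odorant-binding proteins, Obp57a and Obp99d were called higher, 37 changes were above 0, and the median was 0.11. By array the list's median was 0.09 to 0.20 in Dsup lines and 0.00 to 0.07 in control. The array medians of most other gene lists overlapped between the groups, and separation by chance was not tested. Obp57a was at 7.90, 7.31, 8.29 and 7.43 in Dsup lines and at 6.85, 6.78, 6.59 and 7.05 in control (change 0.91 ± 0.20, adjusted p = 0.0477). Of 172 other antennal genes, the receptors Or59c and Gr36c and the CD36-family protein Snmp2 were called higher, with changes of 0.84, 0.48 and 0.66, a share near that of all genes. Snmp2 was at 4.28, 4.25, 4.09 and 4.19 in Dsup lines and at 3.42, 3.61, 3.53 and 3.61 in control, and kept its call in every fit without 1 array (adjusted p = 0.0101). Its other probe set changed by 0.31. Only 10 of these 172 genes lay above the 40th percentile of level.

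The remaining lists hold housekeeping, structural and other tissue genes. Their calls are read against 1.19% of all genes called higher and 0.801% lower. Cytosolic ribosomal proteins had a median of -0.08 over 34 genes and none called, oxidative phosphorylation subunits -0.02 over 76 with none called, and proteasome subunits 0.01 over 40 with none called. Of 69 mitochondrial ribosomal proteins mRpS33 was called, at a change of 0.59 ± 0.13 (adjusted p = 0.0433), and the median was 0.08. Sarcomere genes had a median of 0.04 over 24, clock genes -0.06 over 14, oenocyte genes 0.12 over 12, midgut identity genes 0.04 over 12, ejaculatory bulb and duct genes 0.14 over 7 and genes of amine signalling 0.01 over 16, all with none called. Of 109 cuticle genes Ccp84Ae was called higher and TwdlY lower, with changes of 0.56 and -0.58. Of 17 female genes the chorion gene Cp19 was called lower, with means of 1.58 in Dsup lines and 2.20 in control.

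The lines differed among themselves, and some of those differences were seen again in irradiated flies of the same line. At least 2-fold from the mean of the other 3 untreated lines were 180 genes in line 1, 89 in line 2, 127 in line 3 and 105 in line 4. Of these, 9, 7, 3 and 3 were also at least 2-fold away, in the same direction, on the array of irradiated flies of that line. How many would repeat by chance was not tested. In untreated controls 1 to 4, 71, 52, 29 and 139 genes lay at least 2-fold from the mean of the other controls. The metallothioneins, small proteins that bind copper and other metals, set line 1 apart. MtnD was at 9.83, 6.51, 5.59 and 7.06 in untreated lines 1 to 4 and at 9.50, 5.04, 4.83 and 4.64 in irradiated lines 1 to 4. Untreated controls 1 to 4 lay between, at 7.99, 7.72, 8.41 and 6.68. Line 1 was thus the highest and the other lines lay at or under the controls, except line 4 when untreated, which lay above control 4.

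The other metallothioneins had the same order for line 1. MtnC was at 10, 7.96, 7.82 and 7.62 in untreated lines and at 9.75, 8.28, 7.92 and 7.76 in irradiated ones, with untreated controls at 9.03, 8.65, 9.54 and 7.79. MtnB was at 6.09, 4.35, 3.73 and 3.99 in untreated lines and at 7.21, 4.91, 3.92 and 4.32 in irradiated ones. MtnA, added after its values were seen, was at 11.62, 8.72, 10.30 and 10.80 in untreated lines and at 10.84, 9.30, 10.33 and 9.42 in irradiated ones. None of these genes was called between the groups, and the mean changes of MtnA, MtnB, MtnC and MtnD were -0.26, 0.01, -0.40 and -0.46. An average over the lines hides this difference.

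**Figure D4:**
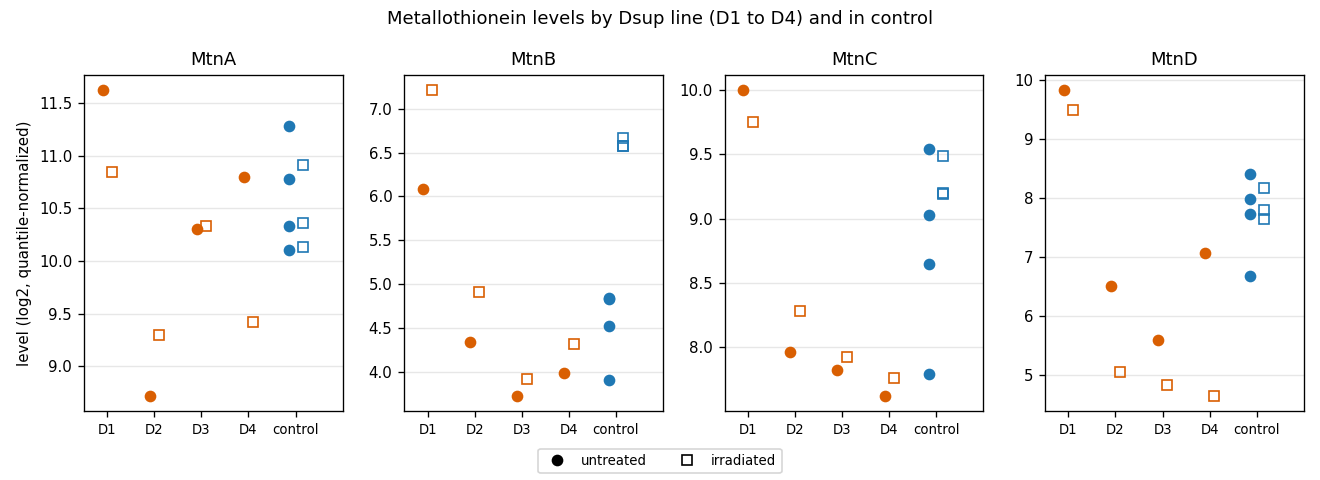
Log2 level (vertical axes) of 4 metallothionein genes in Dsup lines 1 to 4 (D1 to D4, orange) and in control (blue), with filled circles for untreated and open squares for irradiated arrays. Line 1 is the highest Dsup line in every panel and both treatments, reaching 9.83 for MtnD when untreated.

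Other differences of a single line were smaller in number. Line 2 was low in GstD2, Ugt37A3 and GstD5 in both treatments: GstD2 was at 3.82 in it against 4.48, 7.08 and 4.69 in untreated lines 1, 3 and 4, and at 5.67 against 8.63, 6.63 and 7.46 in irradiated ones. Line 4 was low in rb (ruby), a subunit of the AP-3 complex that carries pigment to eye granules. rb was at 5.93, 5.95, 5.90 and 4.37 in untreated lines, at 5.40, 5.74, 5.51 and 4.41 in irradiated lines, and at 4.51, 5.68, 5.16 and 4.56 in untreated controls, so the other untreated lines lay above the controls and line 4 just below them. Line 4 was also low in Drsl4, at 5.49 when untreated, where line 2 was at 5.31, and at 6.37 when irradiated, where line 2 was at 9.60. Across all probe sets the median SD was 0.163 among Dsup lines and 0.154 among controls, and the SD of the lines was the larger in 53.3% of probe sets.

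The same contrast after 1000 Gy, on other arrays of the same lines, kept the direction of some calls. Of the 500 called probe sets 298 (59.6%) had a change of the same sign after irradiation, against 53.9% of all probe sets. Of the 500, 149 (29.8%) also had irradiated groups that did not overlap and the same sign, against 19.8% of all, and 74 did not overlap with the opposite sign. Irradiated groups did not overlap in 36.2% of all probe sets. List medians after irradiation were 0.00 for accessory gland, -0.03 for testis, 0.01 for phototransduction and 0.06 for neuronal genes, against 0.00 over all genes. For fat body, haemocyte and solute carrier genes they were 0.15, 0.12 and 0.19. Pairs of the 3 irradiated control arrays held between 36.0% and 40.9% identical deposited values, against at most 1.10% in pairs of the other groups, so their spread cannot be read as that of separate samples. P-values of tests that use them may be too small.

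Among the leading genes, CG31664, CG2961, CG34431, AstCC and CG17404 were alike in both treatments. CG31664 was at 5.0, 5.26, 4.34 and 5.10 in irradiated Dsup lines and at 3.66, 3.47 and 4.16 in irradiated controls, a change of 1.16 beside 1.19 in untreated flies. CG34431 had changes of -0.77 in both. mthl2 was higher in the lines in both, with a smaller change of 0.69 after irradiation. GstD5 went the other way, at 10.01, 7.87, 8.68 and 9.13 in irradiated Dsup lines and at 10.21, 10.33 and 9.98 in irradiated controls. The change between them was -1.25. The level was higher after irradiation in control flies and in lines 1, 2 and 4, and lower in line 3, at 8.68 when irradiated and 9.10 when untreated. The difference from the untreated change, -3.58, had a limma adjusted p of 0.00902 for the interaction over all 15 arrays. Ugt37A2 had a change of -0.56 after irradiation (interaction adjusted p = 0.0064), and en and CG4408 had changes of 0.00 and -0.08 (interaction adjusted p = 0.00291 and 0.00997). These genes were picked for their untreated change, which the interaction test subtracts, so a smaller change after irradiation is favoured.

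**Figure D5:**
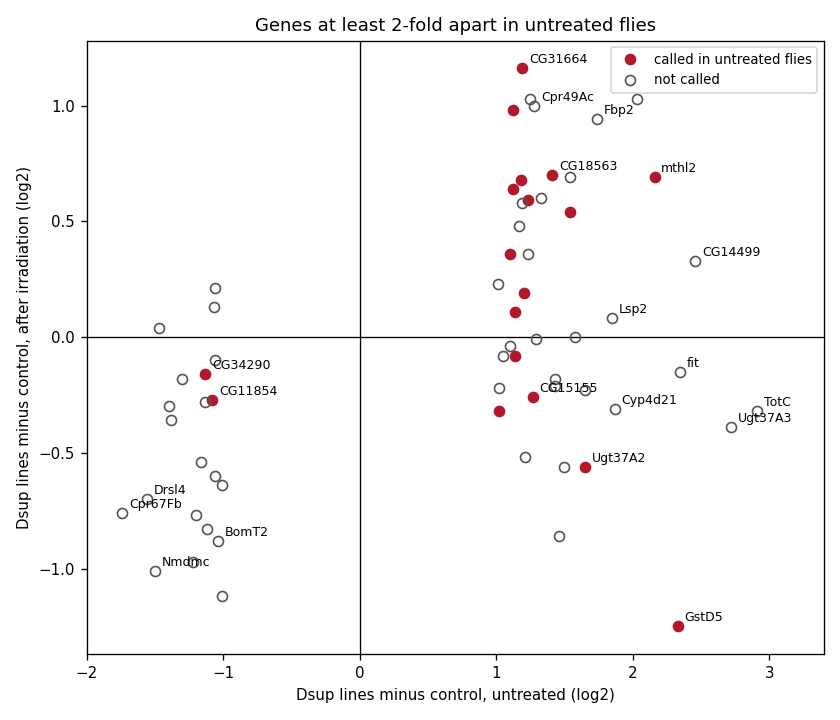
Change between Dsup lines and control in untreated flies (horizontal axis, log2) and after irradiation (vertical axis, log2) for the 64 genes at least 2-fold apart in untreated flies, filled where called in untreated flies. GstD5 (2.33 and -1.25) lies at the lower right and CG31664 (1.19 and 1.16) at the top, and the genes lower in untreated flies lie near or below 0 after irradiation.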

How the data were processed

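RNA of 15 pools of whole male flies was measured on Affymetrix 3' arrays, from 250 ng of total RNA each per the labels' protocols, and the 8 untreated arrays make the comparison. The deposited table holds log2 levels of 18952 probe sets, a scale read from the values. The sources used here do not give the probe summary, the normalization or the genome build behind it. No raw intensities were used, and the number of arrays limits the precision.

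All 15 arrays were quantile-normalized together, 183 control probe sets of the manufacturer were dropped, and Dsup lines were compared with control by limma 3.58.1 in R 4.3.3 (linear model, plain empirical Bayes, two-sided, Benjamini-Hochberg over 18769 probe sets, called below 0.05). Only the 8 untreated arrays entered the fit, because pairs of irradiated controls share many identical values. A gene was the probe set with 1 symbol and the highest mean, per the platform annotation, of which no symbol needed updating. The fit was tested on simulated data.

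The comparison, the 35 gene lists and the rule for named genes were chosen with earlier results of these data known. The rule names the 15 largest rises and falls among called genes with groups apart, up to 4 called members per list (or up to 2 others by size), y, Yp1, p53, 3 genes per line and called neighbours, 109 genes in all. Most genes outside it are marked as such. Also outside it are Yp3, Cp15, Cp18, Cyp4ac3, Lpin, bmm, Pepck1, BomT2, NimC4, CG6415, CG6431, Zip42C.1 and Zip42C.2. The replicate numbers were not used as pairs: deviations of same-numbered arrays correlated at 0.18, 0.0901, -0.0115 and 0.388. On the first principal component of the untreated arrays (37.9% of variance), arrays 2 and 4 lay above 1 and 3 in both groups. Dsup lines 1 to 4 were at -26.6, 2.10, -24.2 and 6.63 and controls 1 to 4 at -3.19, 13.7, 3.17 and 28.3. Whether arrays of the same number belong together was not tested. Scaling, filters, blocks, covariates and left-out arrays were varied. The p-values measure the spread between these pools. No promoter sequences were used.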

Additional observations from a re-analysis of the deposited data

Results flagged for a closer look

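For 28 of the 109 named genes the change between Dsup lines and control differed between untreated and irradiated flies, by limma's interaction test over all 15 arrays, whose irradiated controls share many identical values. Most of these genes were named for the size of their untreated change, which the interaction test subtracts. A smaller change after irradiation is thus favoured by the choice of genes. No share over all probe sets is given beside this count. The untreated changes stand in the results, and the changes after 1000 Gy are given here. Of the called rises, GstD5 was at -1.25, mthl2 at 0.69, Ugt37A2 at -0.56, CG15155 at -0.26, Elal at 0.11 and CG4408 at -0.08 after irradiation. Of the called falls, gogo was at -0.12, Lmx1a at -0.33, CG12017 at -0.11, CG10864 at 0.41 and stl at 0.38. Of the list members, MED16 was at -0.18, Cyp313a3 at -0.17, Ugt36F1 at 0.05, AttD at -0.09, Drsl2 at -0.71, Drsl6 at 0.04, Or59c at -0.30, Gr36c at -0.30, Ilp5 at -0.14, etaTry at -0.15, TwdlY at -0.05, mRpS33 at -0.16 and CG14325 at -0.15. These 24 genes were called in untreated flies. The other 4 were not: asf1 was at -0.87, can at 0.54, RnrL at -1.25 and GstD2 at -2.17 after irradiation, with changes of 0.38, -0.47, 0.40 and 0.90 in untreated flies (interaction adjusted p = 0.000267, 0.0015, 0.0134 and 0.0483).

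In a group of 4 arrays a single one lay far from the other 3 in some named genes, which chance gives in about 1 in 20 groups. That rate does not hold for MtnC, Cpr49Ac and rb, which were named for the deviation of 1 line. Among Dsup lines, line 1 stood apart in MtnC (10), line 2 in Psf2 (5.34), line 3 in Cpr49Ac (7.23) and line 4 in Hmr (4.13), Cyp6t1 (5.08), Cyp4ac1 (6.23) and rb (4.37). Among controls, control 2 stood apart in CG31664 (3.17) and stl (3.42), and control 4 in Hmr (4.51), orb2 (7.86), pros (5.73), se (5.91), DopEcR (5.14) and Dop1R1 (3.21). Control 4 was the lowest control in all of its genes except Hmr.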

How the results depend on the processing

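The count of calls depended on the processing. Without quantile normalization, as deposited, 16288 probe sets were called, 42 higher and 16246 lower in Dsup lines. Centring each array on its median gave 1395 (1251 higher and 144 lower), and centring on cytosolic ribosomal genes 990 (822 and 168). With all 15 arrays in the fit 2010 were called (1021 and 989), and with an intensity trend 720 (395 and 325). The 3' minus 5' covariate left 111 (61 and 50), and a block for the hybridisation-control sets 324 (191 and 133). The filter at the 40th percentile left 0 in either direction, with 1528 at an unadjusted p below 0.05. limma on the arrays with low or with high hybridisation controls alone, which holds fewer arrays, called 0 each, with 1448 and 2286 at an unadjusted p below 0.05. With irradiated Dsup lines added to the fit, chosen after seeing the data, 1136 were called (589 and 547), and 21 (16 and 5) with the filter as well. The replicate block gave 422 (262 and 160), 293 of them in the same direction among the 500, and the numbers were not used as pairs. Leaving out 1 array gave 74 to 315 calls, 40 to 187 higher and 34 to 128 lower, lowest without control replicate 3 and highest without Dsup replicate 1. Of the 58 called named genes 9 were called in every such fit: mthl2, CG18563, CG31664, CG17404, Lmx1a, AstCC, CG2961, CG34431 and Snmp2.

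As deposited, 11 of the named genes called higher were not above 0, by the shift of the whole group: MED16 at -0.20, Cyp4ac1 at -0.08, Cyp4ac2 at -0.07, Ugt36F1 at -0.06, Obp99d at 0.0, Snmp2 at -0.02, Gr36c at -0.01, Ser6 at -0.18, etaTry at -0.22, Ccp84Ae at -0.03 and mRpS33 at -0.09. Where groups do not overlap, as in every called probe set, leaving out arrays cannot turn a sign. No detection calls were used, so a level near the low end of the array may hold little signal above background.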

Other observations

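In Nmdmc, Pfas, Tdh and vri the arrays numbered 2 and 4 lay above those numbered 1 and 3 in both groups. The first principal component of the untreated arrays had the same order, and so did other genes such as atk, CG10383 and CG12826. These genes were chosen after their values were seen. Nmdmc, a mitochondrial enzyme of folate metabolism, was at 5.39, 9.24, 6.66 and 8.34 in Dsup lines 1 to 4 and at 8.12, 9.37, 8.15 and 10 in controls 1 to 4. Pfas, an enzyme of purine synthesis, was at 7.11, 9.08, 7.42 and 8.65 in Dsup lines and at 8.17, 10.07, 8.70 and 9.95 in control. Tdh was at 4.65, 6.92, 5.66 and 6.32 in Dsup lines and at 5.54, 8.12, 6.21 and 8.54 in control. vri, a clock gene whose level cycles over the day, was at 5.93, 7.29, 6.81 and 7.14 in Dsup lines and at 6.66, 7.98, 7.24 and 7.94 in control. In each of the 4 genes every Dsup line also lay below the control of its own number. The mean changes were -1.50, -1.16, -1.22 and -0.67 for Nmdmc, Pfas, Tdh and vri, none called (adjusted p = 0.301, 0.247, 0.346 and 0.314).

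GIIIspla2 and Sclp, also chosen after their values were seen, were lower in every Dsup line than in any control, without a call. GIIIspla2, a secreted phospholipase A2, was at 7.27, 8.72, 7.13 and 8.34 in Dsup lines and at 9.13, 8.77, 8.96 and 8.85 in control (change -1.06 ± 0.32, adjusted p = 0.101). Sclp was at 6.14, 7.34, 7.44 and 7.84 in Dsup lines and at 8.03, 8.21, 8.18 and 8.60 in control (change -1.07 ± 0.31, adjusted p = 0.0926). After irradiation GIIIspla2 and Sclp had changes of 0.21 and 0.13. Among genes with the 2 treatments alike, BomT2, a secreted immune peptide, had changes of -0.88 in irradiated and -1.04 in untreated flies, and NimC4, a haemocyte receptor, of 1.03 in irradiated and 1.25 in untreated flies.

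Of 11899 genes whose order along the chromosomes was known, 7 pairs of neighbours were called together, 5 of them in the same direction: Cyp4ac1 and Cyp4ac2, CG6415 and CG6431, Zip42C.1 and Zip42C.2, AttD and CG14325, and Nepl19 and Nepl20. The other 2 pairs were called in opposite directions. Over all genes 1.19% were called higher and 0.801% lower, and how many pairs such shares would give by chance was not tested.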
